A study of Homo sapiens with 52 samples.

Results

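RNA-seq libraries from HEK293T cells given DENR siRNA #1 were set against those from cells given DENR siRNA #2, which makes 4 of the 52 samples of the series. They were chosen by their labels, 2 libraries for each siRNA. The question the comparison addresses is which transcripts left the control level with 1 siRNA and not with the other. HEK293T is a transformed human embryonic kidney cell line. The series holds RNA-seq and Ribo-seq of such cells, wild type or after loss of MCTS1 or DENR. It also holds ribosome complex profiling of wild type cells and of cells without MCTS1 or without eIF2D, a related protein. In other samples of that kind, small ribosomal subunits were selected with tagged eIF2D, MCTS1 or DENR. The 2 siControl RNA-seq libraries served only as a reference level and entered no test of one DENR siRNA against the other. The 2 wild type RNA-seq libraries were used as another reference level, in the last section only. The labels give siControl, siDENR #1 and siDENR #2 without the dose, the time after transfection or the sequence of any siRNA, so none is printed here. Nor do they say that the replicates were grown apart, and the p-values rest on the variation among these libraries, which could be technical.

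An siRNA is a short RNA duplex of which the guide strand is loaded into an Argonaute protein. The loaded guide directs the cleavage of an mRNA that it matches along its length, and it can also lower other mRNAs that match only its seed, the bases near its 5′ end, mostly through sites in their 3′ UTRs. Different siRNAs against the same mRNA share the target but not the seed, so a pair of them is commonly used to tell target effects from effects of a single sequence. DENR is a translation factor that works in a complex with MCTS1, acts on the small ribosomal subunit after termination, and is known for its part in reinitiation after short upstream open reading frames.

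Counts were deposited per transcript, for 226882 versioned transcript identifiers. No table used here pairs them with gene names, so neither DENR nor the markers of HEK293T cells could be looked up, and transcripts are named by identifier. The RNA-seq libraries held 76967099 and 104084653 counts in control, 86836964 and 98279467 with siRNA #1, and 80490772 and 79889584 with siRNA #2. Ribo-seq, which sequences mRNA fragments protected by ribosomes, was available for the same 3 groups with 16370112 to 32908525 counts in each of 6 libraries. The median difference between replicates of a transcript, on the log2 scale, was 0.13 in control, 0.18 with siRNA #1 and 0.13 with siRNA #2 in RNA-seq, so the siRNA #1 replicates were the least alike. Transcripts of a gene can hold the same reads, so their tests are not independent and a count of transcripts is not a count of genes.

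The 2 siRNAs gave different transcriptomes over a large part of the transcripts measured, mostly by small amounts. Of 129636 transcripts tested, 28861 (22.3%) differed at an adjusted p under 0.05 in edgeR's quasi-likelihood test with Benjamini-Hochberg adjustment, which was fitted on the 4 DENR siRNA libraries. 14526 (11.2%) were higher with siRNA #1 and 14335 (11.1%) were lower with it. The median log2 difference of the called transcripts was 0.54 for those higher with siRNA #1 and −0.52 for those lower. Most calls were therefore of less than 2-fold. A difference of at least 2-fold besides the adjusted p was found for 3767 transcripts, 2.91% of those tested. Of these, 2014 (1.55%) were higher with siRNA #1 and 1753 (1.35%) were lower. At least 4-fold differences were 134 higher (0.103%) and 142 lower (0.11%). The 3767 transcripts had 3569 distinct count profiles over the 6 siRNA libraries, so few of them repeated the exact counts of another. Transcripts with nearly the same counts were not merged, so 3569 is not a number of independent differences. In 3765 of them the libraries of one siRNA did not overlap those of the other, which held for 59.3% of all transcripts tested. DESeq2 called 17656 transcripts, 2190 of them at least 2-fold apart.

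Removing 1 library of siRNA #2 lowered the number of calls by over 1.5 times. 13229 transcripts were called without its replicate 1 and 11294 without its replicate 2, in fits where the lone library was assumed to vary like the siRNA #1 libraries. Without a library of siRNA #1 the counts were 30932 and 36313. The number of differences of at least 2-fold moved less, between 3058 and 4400.

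More highly counted transcripts were called more often and by smaller amounts. In the quartile of tested transcripts with the lowest levels, with a median of 0.321 CPM (counts scaled to a common library size), 8.24% were called and 5.59% were called and at least 2-fold apart. In the quartile with the highest levels, with a median of 12.8 CPM, 36% were called and 1.4% were at least 2-fold apart.

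Each of the 3767 transcripts was then placed by its level in the control libraries. A transcript counted as moved by 1 siRNA only if its mean log2 CPM with that siRNA was at least 1 from the control mean and with the other siRNA at most 0.5 from it. Such single-siRNA transcripts made up 1996 of the 3767, or 53.0%. These classes describe levels, with no test against control. 1505 of the 1996 (75.4%) were below control with the siRNA that set them apart and 491 were above. Low levels with 1 siRNA were thus the more frequent kind, although transcripts at least 2-fold from control were about as often above it as below over all transcripts tested. For siRNA #1, 2173 of the 129636 (1.68%) lay at least 2-fold below control and 2299 (1.77%) at least 2-fold above. For siRNA #2 the numbers were 1706 (1.32%) below and 1611 (1.24%) above. In bulk libraries, fewer cells of a kind and less RNA per cell cannot be told apart.

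**Figure D1:**
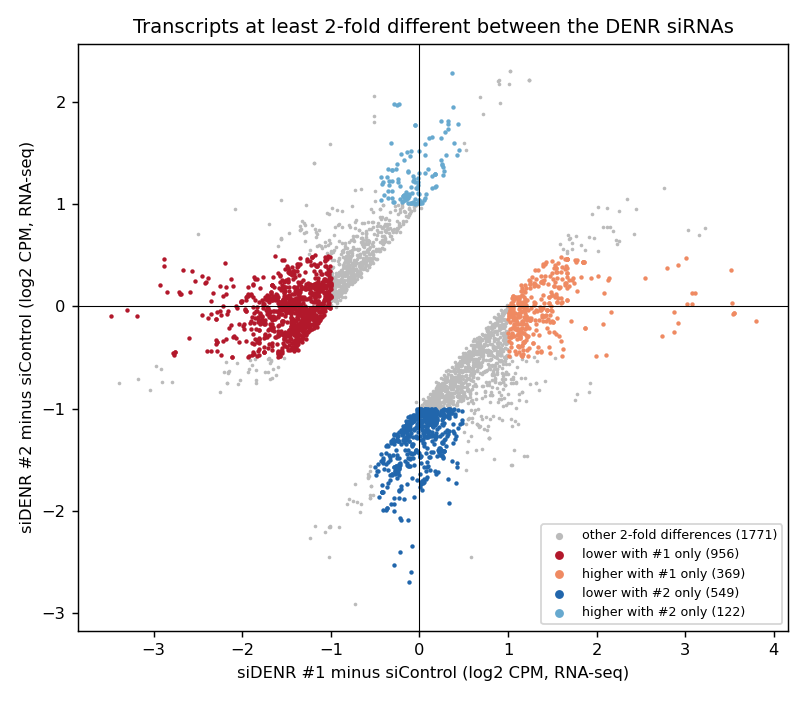
Transcripts at least 2-fold different between the DENR siRNAs, each a point at its mean log2 CPM minus that of the control libraries in RNA-seq, for siDENR #1 on the horizontal axis and siDENR #2 on the vertical axis. Coloured points are the single-siRNA classes, of which the 956 lower with #1 only lie left of −1 and the 549 lower with #2 only lie below −1, and the empty diagonal band follows from the 2-fold minimum.

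Below control with siRNA #1 only was the largest single-siRNA class. It held 956 transcripts with a median level of 1.70 CPM over the 4 libraries. Their median log2 difference between the siRNAs was −1.41 and reached −3.73. Their median distance from control was −1.40 with siRNA #1 and −0.03 with siRNA #2. The counterpart class, below control with siRNA #2 only, held 549 transcripts with a median level of 1.57 CPM. Its median difference between the siRNAs was 1.29 and the largest was 2.60. Its median distance from control was −1.22 with siRNA #2 and 0.03 with siRNA #1. Differences of at least 4-fold were found for 87 transcripts of the siRNA #1 class and for 22 of the siRNA #2 class.

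Transcripts above control with 1 siRNA only were fewer and of lower level. 369 were above control with siRNA #1 only, with a median level of 0.335 CPM and a median difference of 1.43 between the siRNAs. The largest difference was 5.78, and 40 transcripts were at least 4-fold apart. The size of this class depended on the libraries used. It fell without either library of siRNA #2 or without replicate 1 of siRNA #1, and rose without replicate 2 of siRNA #1. The class below control with siRNA #1 only moved in the same directions, by smaller proportions. 122 were above control with siRNA #2 only, with a median level of 0.330 CPM and a median difference of −1.32. Their differences reached −3.22, and 11 transcripts were at least 4-fold apart. Both classes sat mostly in the quartile of lowest levels, which held 258 of the 369 and 74 of the 122, and the quartile of highest levels held 6 and 10. The classes below control were spread more evenly, with 274 of the 956 and 186 of the 549 in the lowest quartile and 157 and 117 in the highest. Depth per transcript therefore differed between the classes above and below control.

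Among transcripts of at least 1 CPM the share of low levels was higher, and levels over all transcripts leaned below control too. Of 88497 such transcripts tested, 1671 (1.89%) differed at least 2-fold between the siRNAs, and 1068 of these were single-siRNA transcripts. 939 of the 1068 (87.9%) were below control. Over all 88497, called or not, 1094 lay at least 2-fold below control and 670 above with siRNA #1, and 829 below and 542 above with siRNA #2. With siRNA #1 only, 613 were below and 88 above, and with siRNA #2 only, 326 were below and 41 above. At this level, 41 transcripts were at least 4-fold lower with siRNA #1 only and 5 with siRNA #2 only.

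The other transcripts with 2-fold differences met the rule for neither siRNA alone. 319 were at least 0.5 (log2) above control with siRNA #1 and at least 0.5 below with siRNA #2, and 170 showed the opposite. 67 were below control with both siRNAs by at least 0.5 and 47 were above it with both. The remaining 1168 lay in between these limits. Of the 276 differences of at least 4-fold, 160 were single-siRNA, and the class in between held none.

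The naming rule picked 4 transcripts, all of them below control with 1 siRNA and near control with the other. They are not the largest differences of all. Those above control with siRNA #1 only reached 5.78, in transcripts that did not meet the rule. ENST00000374293.5 had the largest difference of those lower with siRNA #1 by the naming rule, which asks for at least 5 CPM with either siRNA. It stood at 12.6 and 12.1 CPM in control, 10.7 and 12.4 with siRNA #2, and 0.961 and 1.21 with siRNA #1. The siRNA #1 libraries were below all others and those of siRNA #2 overlapped control. Its log2 difference between the siRNAs was −3.40 (SE 0.14, n = 2 and 2, adjusted p = 1.4e-21, edgeR's quasi-likelihood test). ENST00000532428.6 stood at 4.99 and 4.86 CPM in control, 4.97 and 5.89 with siRNA #2, and 0.586 and 0.906 with siRNA #1. It too was low in both siRNA #1 libraries alone, with a log2 difference of −2.85 (SE 0.17, edgeR adjusted p = 8e-17).

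The pattern was the reverse for the other pair. ENST00000374214.3 stood at 8.15 and 8.47 CPM in control, 7.98 and 7.39 with siRNA #1, and 1.31 and 1.21 with siRNA #2. Both siRNA #2 libraries were below all others, and the log2 difference was 2.60 (SE 0.14, edgeR adjusted p = 3.2e-18). ENST00000296861.2 stood at 7.59 and 7.36 CPM in control, 5.91 and 6.33 with siRNA #1, and 1.16 and 1.41 with siRNA #2. The siRNA #1 libraries were here below control as well, at −0.29 on the log2 scale beside −2.53 for the siRNA #2 libraries. The log2 difference between the siRNAs was 2.25 (SE 0.15, edgeR adjusted p = 1e-15). Transcripts that repeated the counts of a named one within counting noise were passed over. These 4 kept their direction in every alternative run, and an adjusted p under 0.05 in those that left no library out. The alternatives reused the libraries in which the 4 had been picked for their large differences. Their outcome is therefore no independent check.

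**Figure D2:**
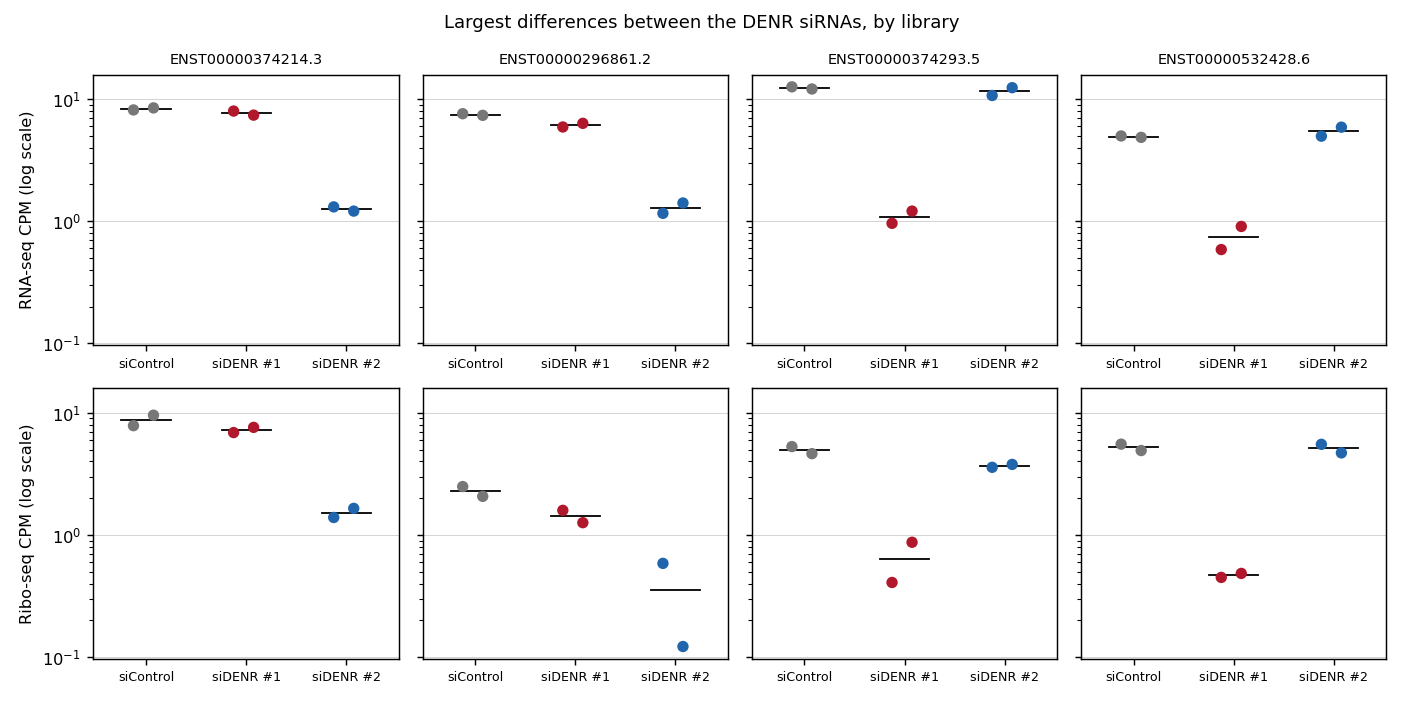
CPM on a log scale of the 4 named transcripts in each RNA-seq library (top) and Ribo-seq library (bottom), with siControl in grey, siDENR #1 in red, siDENR #2 in blue and a bar at the mean of each 2 libraries. The transcripts in the 2 panels on the left are lowest in the siDENR #2 libraries and those on the right in the siDENR #1 libraries, in both assays, and ENST00000296861.2 is also below control with siDENR #1.

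The most abundant transcript of each class is given as an example of its levels. Its pattern follows from the class rule, which used the same libraries. In the class below control with siRNA #1 only it stood at 128 and 128 CPM in control, 49 and 52.5 with siRNA #1 and 144 and 144 with siRNA #2. In the class below control with siRNA #2 only it stood at 105 and 109 CPM in control, 113 and 109 with siRNA #1 and 54.4 and 52.1 with siRNA #2. Both were at 105 CPM or more in all libraries but the 2 that set them apart. Above control with siRNA #1 only, the most abundant stood at 20.4 and 19.3 CPM in control, 45.7 and 42.7 with siRNA #1 and 18.4 and 17.4 with siRNA #2. Above control with siRNA #2 only, it stood at 7.6 and 8.1 CPM in control, 6.12 and 7.71 with siRNA #1 and 16.3 and 16.8 with siRNA #2.

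Ribo-seq gave a second readout of the same siRNAs in libraries that took no part in choosing these classes. Whether the Ribo-seq and RNA-seq libraries came from the same dishes is not stated in the labels. In edgeR's quasi-likelihood test of the 4 DENR siRNA Ribo-seq libraries, 10819 of 101704 transcripts (10.6%) differed between the siRNAs, 5038 (4.95%) higher with siRNA #1 and 5781 (5.68%) lower. At least 2-fold differences numbered 3246 (3.19%), of which 1431 (1.41%) were higher and 1815 (1.78%) lower. At 4-fold, 240 (0.236%) were higher and 429 (0.422%) lower. Of the 1996 single-siRNA transcripts of RNA-seq, 1316 could be tested in Ribo-seq. 911 of them (69.2%) were called in the same direction there, against 10.6% of all transcripts called in either direction. Of all transcripts at least 2-fold apart in RNA-seq, 1331 of the 2189 tested were called in the same direction. Carrying over was thus not particular to the single-siRNA classes. Shares of the other classes ranged from 28.6% (above control with both, 7 tested) to 71.1% (below control with both, 45 tested). No single-siRNA transcript was called in the opposite direction.

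The classes below control carried over to Ribo-seq most often. Of those below control with siRNA #1 only, 763 were tested and 572 (75%) were called lower with siRNA #1, where 5.68% of all transcripts were. Their median log2 difference was −1.38 in RNA-seq and −1.58 in Ribo-seq. Of those below control with siRNA #2 only, 271 of 408 (66.4%) were called higher with siRNA #1, where 4.95% of all transcripts were, and the medians were 1.27 and 1.33. Smaller shares of the classes above control were called. These were 41 of 96 (42.7%) for siRNA #1, with medians of 1.33 and 1.21, and 27 of 49 (55.1%) for siRNA #2, with medians of −1.20 and −0.97. Among transcripts of at least 1 CPM the shares were 84.4%, 78.3%, 61.4% and 66.7% in the same order of classes.

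**Figure D3:**
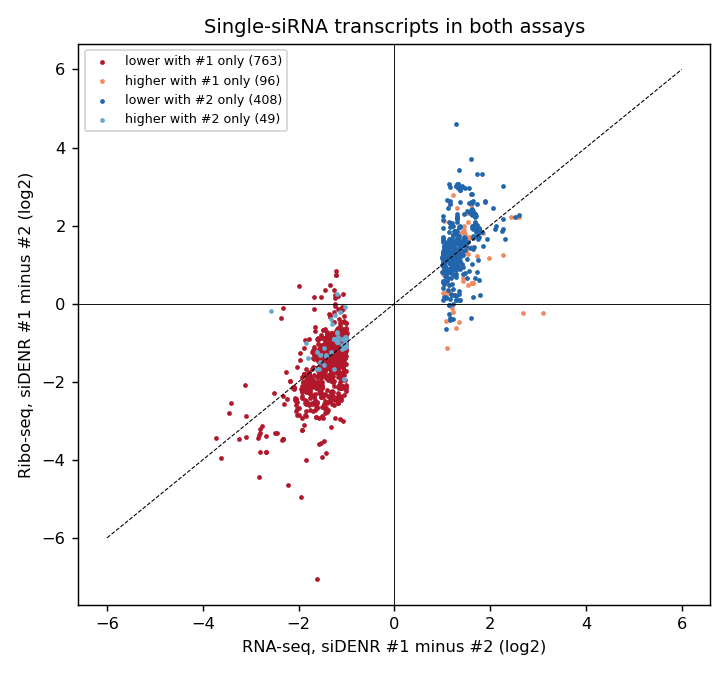
Log2 difference of siDENR #1 minus siDENR #2 in RNA-seq (horizontal axis) and Ribo-seq (vertical axis) for the single-siRNA transcripts tested in both, with a dashed line where both are equal. Nearly all points lie at the lower left and upper right, with medians of −1.38 and −1.58 for the 763 transcripts lower with #1 only.

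Library by library, a class near the control level with 1 siRNA in RNA-seq was near it with that siRNA in Ribo-seq too. For the class below control with siRNA #1 only, the median log2 distance from the control mean in Ribo-seq was −1.50 and −1.47 in the siRNA #1 libraries and 0.03 and −0.05 in the siRNA #2 libraries. For the class below control with siRNA #2 only, it was −1.36 and −1.37 in the siRNA #2 libraries and 0.00 and 0.04 in the siRNA #1 libraries. The replicates of a group were close to each other beside the distance between the siRNAs. The classes above control had Ribo-seq medians of 0.89 and 1.24 in the siRNA #1 libraries for siRNA #1, and of 0.91 and 1.10 in the siRNA #2 libraries for siRNA #2.

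**Figure D4:**
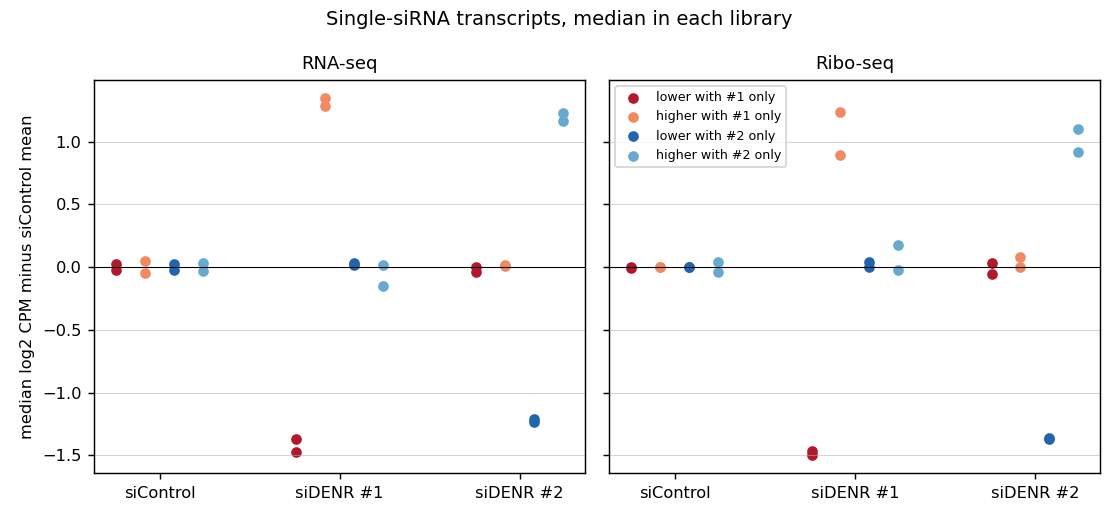
Median log2 CPM minus the control mean of the 4 single-siRNA classes in each library of RNA-seq (left) and Ribo-seq (right), 1 point per library and class. The classes lower with #1 only (red) and lower with #2 only (blue) are below −1.2 in the 2 libraries of their own siRNA and near 0 in the libraries of the other, in both assays.

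The named transcripts differed between the siRNAs in the same direction in Ribo-seq. ENST00000374293.5 stood at 5.29 and 4.63 CPM in control, 0.408 and 0.871 with siRNA #1 and 3.58 and 3.78 with siRNA #2, a log2 difference between the siRNAs of −2.54 (SE 0.36, edgeR adjusted p = 3.9e-06). ENST00000532428.6 stood at 5.54 and 4.91 CPM in control, 0.449 and 0.484 with siRNA #1 and 5.52 and 4.70 with siRNA #2, a difference of −3.45 (SE 0.33, edgeR adjusted p = 1.3e-09). Neither had overlapping siRNA groups. ENST00000374214.3 stood at 7.85 and 9.56 CPM in control, 6.89 and 7.60 with siRNA #1 and 1.39 and 1.65 with siRNA #2, a difference of 2.27 (SE 0.24, edgeR adjusted p = 8e-09). ENST00000296861.2 had few Ribo-seq counts, 72 and 67 in control, 39 and 26 with siRNA #1 and 16 and 2 with siRNA #2. Its difference was 1.85 with a larger error (SE 0.53, edgeR adjusted p = 0.019). Its mean log2 CPM in Ribo-seq was −0.65 from control with siRNA #1 and −2.68 with siRNA #2, so it was below control with both there.

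Over all 96199 transcripts tested in both assays, the difference between the siRNAs in Ribo-seq followed that in RNA-seq with a Pearson correlation of 0.63 and a Spearman correlation of 0.59. These are correlations across transcripts, which share reads and are not independent replicates. 7887 transcripts were called in both assays, of which 3542 were higher with siRNA #1 in both, 4235 were lower in both and 110 were called in opposite directions. Among these 96199 transcripts there were 25332 RNA-seq calls and 10402 Ribo-seq calls. Those called in the same direction in both assays made up 30.7% of the former and 74.8% of the latter, where fewer counts were available.

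The assays were also set against each other in 1 edgeR quasi-likelihood model, whose interaction term is the siRNA difference in Ribo-seq minus that in RNA-seq. Of 96199 transcripts tested, 912 (0.948%) were called, 836 (0.869%) lower with siRNA #1 in Ribo-seq relative to RNA-seq and 76 (0.079%) higher. 80 of those lower and 41 of those higher were at least 2-fold apart. In the class below control with siRNA #1 only, 3 were called lower and 8 higher out of 763, with a class median of −0.17. In the class below control with siRNA #2 only, it was 1 and 5 out of 408, with a class median of 0.11. No transcript of the classes above control was called, among 96 and 49 tested. The classes were chosen on the RNA-seq difference that the interaction term subtracts, so their counts and medians are a description.

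Some transcripts were low with both siRNAs. Of the 129636 tested, 165 lay at least 2-fold below control with each of them, beside the 2173 below it with siRNA #1 and the 1706 with siRNA #2, all set against the same control libraries. 22 of the 165 (13.3%) differed between the siRNAs by the edgeR test, and 7 differed at least 2-fold. 686 lay at least 2-fold above control with both, and 77 of these (11.2%) differed between the siRNAs. Both lists were picked for lying on the same side of control with either siRNA, so these shares are a description. At 4-fold, 97 transcripts were below control with siRNA #1 and 27 with siRNA #2, and 4 were with both. Those 4 were named after their values had been seen.

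The 4 transcripts had very low levels with both siRNAs. ENST00000280557.11 stood at 33.7 and 30.5 CPM in control, 1.23 and 1.71 with siRNA #1 and 2.64 and 2.72 with siRNA #2. ENST00000455982.2 stood at 20.2 and 18.3 CPM in control, 0.75 and 0.854 with siRNA #1 and 1.58 and 1.54 with siRNA #2. Both differed between the siRNAs, with lower levels after siRNA #1. The log2 differences were −0.86 (SE 0.16) with an edgeR adjusted p of 0.00011 for the first and −0.96 (SE 0.20) with an edgeR adjusted p of 0.00032 for the second. ENST00000539463.1 stood at 7.21 and 7.46 CPM in control, 0.258 and 0.298 with siRNA #1 and 0.305 and 0.571 with siRNA #2. ENST00000537955.1 stood at 4.37 and 4.19 CPM in control, 0.188 and 0.340 with siRNA #1 and 0.318 and 0.304 with siRNA #2. These 2 were at 16 to 47 counts in each DENR siRNA library, and their differences between the siRNAs, −0.65 and −0.22, did not pass the test (edgeR adjusted p = 0.19 and 0.74).

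In Ribo-seq the same 4 transcripts were closer to control than in RNA-seq or above it, apart from ENST00000537955.1 with siRNA #1. ENST00000280557.11 had 540 and 542 Ribo-seq counts in control, 227 and 199 with siRNA #1 and 287 and 102 with siRNA #2. ENST00000455982.2 had 430 and 417 in control, then 227 and 198, and 283 and 100. ENST00000539463.1 had 212 and 194 in control, then 224 and 198, and 282 and 98. In each DENR siRNA library these 3 transcripts thus held nearly the same number of counts, although the first held over 2 times the counts of the third in control. ENST00000537955.1 had 87 and 94 counts in control, 3 and 2 with siRNA #1, and 273 and 94 with siRNA #2, close to the other 3 with siRNA #2 alone. Its Ribo-seq log2 difference between the siRNAs was −6.11 (SE 0.41, edgeR adjusted p = 1.6e-13), beside −0.22 in RNA-seq. Counts per transcript give no positions, so which stretch of the transcripts these fragments came from was not tested.

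**Figure D5:**
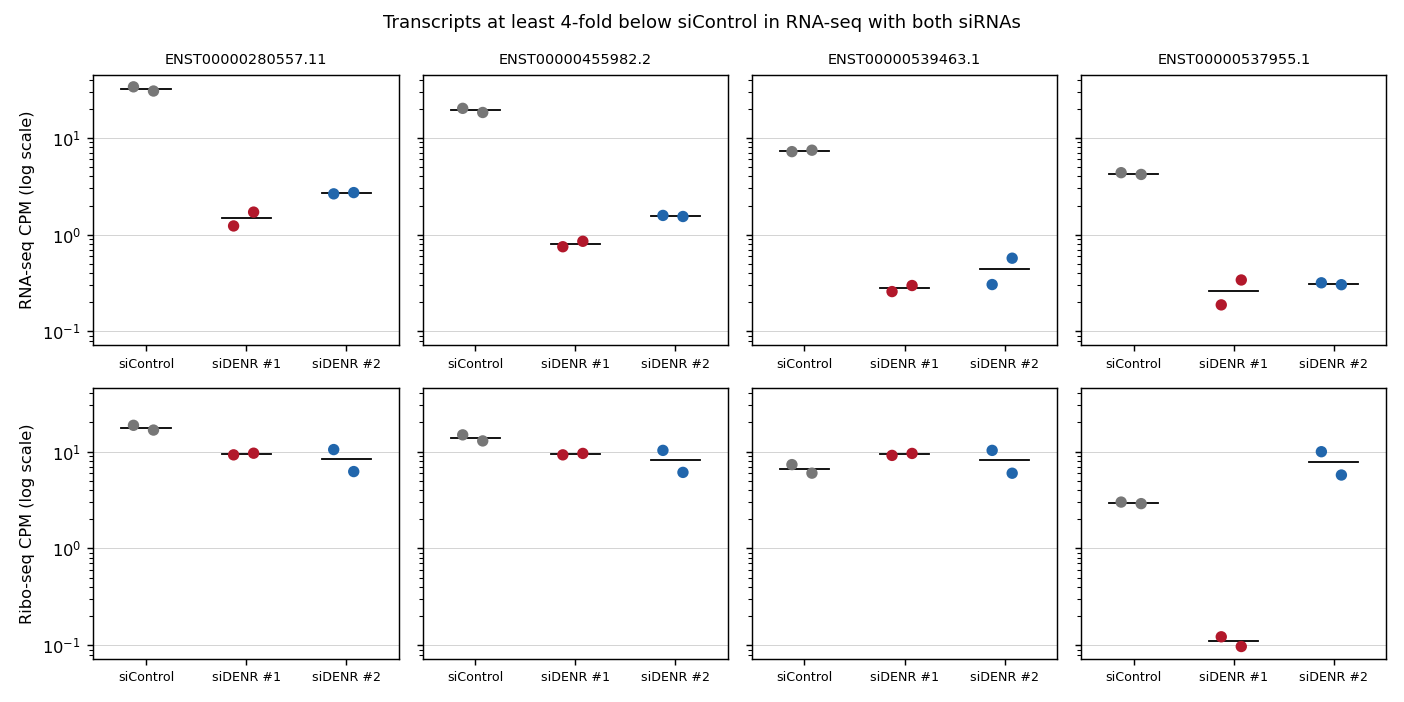
CPM on a log scale of the 4 transcripts at least 4-fold below siControl in RNA-seq with both siRNAs, in each RNA-seq library (top) and Ribo-seq library (bottom), with a bar at the mean of each 2 libraries. In RNA-seq all DENR siRNA libraries are far below control, and in Ribo-seq ENST00000537955.1 is at 0.122 and 0.0968 CPM with siDENR #1 and at 9.98 and 5.73 with siDENR #2.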

How the data were processed

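The values used were whole-number counts of reads per transcript, deposited by the authors in 1 table, in which 42 of the 52 samples have a column. The submitters' processing notes name the builds GRCh38.p13 and hg38 and, without versions, the tools STAR, cutadapt, Subread and featureCounts. The treatment of reads that overlap several transcripts, and of strand, is not stated there.

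Counts were tested with edgeR 4.0.16 in R 4.3.3 (quasi-likelihood test, robust fit, TMM factors, filterByExpr at its minimum count of 10, and p-values adjusted by Benjamini-Hochberg over all transcripts tested, called under 0.05). The fit held the 4 DENR siRNA libraries of 1 assay. Standard errors were computed as the absolute log2 difference divided by the square root of F. Levels are CPM with TMM factors over the 6 siRNA libraries of an assay, and log2 CPM used a prior count of 2. The edgeR test of one siRNA against the other was tried on simulated counts, in which transcripts shared no reads.

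The comparison, the lists and the rules were chosen with earlier results of these data known. The naming rule was, where identifiers have no gene names, the 2 transcripts with the largest 2-fold differences in each direction, at 5 CPM or more with either siRNA and without overlap between the siRNA groups. A transcript whose counts matched those of a named one within counting noise (chi-square per degree of freedom under 1) was passed over. The planned lists of genes (target and partners, RNA interference machinery, interferon and stress responses, p53 targets and others) and cell type markers could not be tested without gene names, and the longer list of named genes was not used. Alternatives were DESeq2 1.42.0, library totals alone, 2 other filters, the 6-library fit and each library left out. Further ones were a replicate block, distinct count profiles, other distances from control and wild type cells as the reference. The last of these, and the test of the difference between Ribo-seq and RNA-seq, were added after the data had been seen.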

Additional observations from a re-analysis of the deposited data

How the results depend on the processing

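All 4 numbers of RNA-seq transcripts reported for the siRNA comparison, and that for Ribo-seq, stayed within 1.5 times their value under the alternatives run, apart from these. DESeq2 called 17656 transcripts in place of 28861 in RNA-seq, 2190 in place of 3767 at 2-fold, and 6814 in place of 10819 in Ribo-seq. A minimum count of 50 left 2363 at 2-fold, where fewer transcripts were tested. Without 1 library at a time, the RNA-seq calls ranged from 11294 to 36313 and were 13229 without siDENR #2 replicate 1 and 11294 without its replicate 2. Other ranges without 1 library were 3058 to 4400 at 2-fold, 970 to 1885 for siRNA #1 only, 564 to 710 for siRNA #2 only and 7630 to 8986 for Ribo-seq. A lone library was assumed to vary like the other group.

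Library totals alone moved the median of all transcripts by −0.05 (log2) and turned the split of calls from 14526 higher and 14335 lower with siRNA #1 to 11658 and 18418. For siRNA #2 only, the split went from 122 above and 549 below control to 174 and 405. With a minimum count of 50, the classes above control held 150 in place of 369 and 49 in place of 122, and with a limit of 0.25 from control they held 234 and 85. Under each alternative run for the single-siRNA classes, which did not include DESeq2, more of their transcripts were below control than above it, for either siRNA.

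The replicate numbers are not said to mark anything shared, and the deviations of same-numbered siRNA #1 and #2 libraries correlated at 0.08 in RNA-seq and 0.03 in Ribo-seq. With the replicate number as a block, 39545 transcripts were called, 4124 of them at 2-fold, with 1396 for siRNA #1 only, 726 for siRNA #2 only and 12380 in Ribo-seq. Counting 1 transcript per gene symbol was not run because no table gives symbols. Low counts limit the classes above control, whose median levels were 0.335 and 0.330 CPM.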

Other observations

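ENST00000273550.12 differed in Ribo-seq against its RNA-seq, and was singled out after its values were seen, as the lowest interaction p among transcripts of at least 5 CPM. In RNA-seq it stood at 120 and 122 CPM in control, 137 and 138 with siRNA #1 and 102 and 102 with siRNA #2. In Ribo-seq it stood at 12.6 and 12.9 CPM in control, 4.00 and 4.74 with siRNA #1 and 13.1 and 14.8 with siRNA #2. The siRNA #1 libraries were thus the highest in RNA-seq and the lowest in Ribo-seq. The log2 difference was 0.42 in RNA-seq and −1.67 (SE 0.16) in Ribo-seq, and the interaction was −2.10 (edgeR adjusted p = 1.9e-14).

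Wild type cells, whose labels do not say whether they were transfected, also served as the reference level in place of siControl. Against them, 1295 transcripts were moved with siRNA #1 only (899 below and 396 above). With siRNA #2 only, 612 were moved (448 below and 164 above). 629 of the 956 transcripts below control with siRNA #1 only (65.8%) stayed in their class, as did 268 of the 549 for siRNA #2 (48.8%). Of the classes above control, 153 of 369 (41.5%) and 27 of 122 (22.1%) did. The 122 transcripts above control with siRNA #2 only were also placed relative to wild type cells. Their medians (log2) were −0.79 in the siControl libraries, −0.81 with siRNA #1 and 0.55 with siRNA #2.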
